A study of Mus musculus with 15 samples.

Results

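The 10 genes described here belong to the amino acid response and to serine synthesis. They were chosen by name, as the regulators Atf4 and Atf5, the ATF4-linked stress genes Ddit3, Trib3, Chac1 and Sesn2, the asparagine synthetase gene Asns, and the 3 serine synthesis genes Phgdh, Psat1 and Psph. All 10 were among the 32939 genes of the count table, and all 10 passed the filter on low counts that left 17404 genes for testing. The members were read in 15 RNA-seq libraries of mouse colonic crypts, the epithelial pits that hold the dividing cells of the colon. The 5 NL-shGFP libraries came from wild-type mice on normal diet with a normal liver and AAV-shGFP, an adeno-associated virus vector with a control short hairpin RNA. The 5 FL-shGFP libraries came from wild-type mice with a fatty liver on the CDAA diet, also with AAV-shGFP. The 5 FL-shAlpl libraries came from wild-type mice with a fatty liver on the CDAA diet and AAV-shAlpl, whose hairpin targets Alpl, the gene of tissue-nonspecific alkaline phosphatase. CDAA commonly stands for a choline-deficient feed in which free L-amino acids take the place of protein. Every animal thus carried a vector, diet and liver state changed together, and no normal-diet group received AAV-shAlpl. The labels do not give the tissue the vector reached, the sex or age of the mice, or whether each library is a separate animal, so p-values measure the spread between these samples.

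When amino acids run short or the endoplasmic reticulum is stressed, kinases such as GCN2 and PERK phosphorylate the translation factor eIF2. General translation then falls while the Atf4 mRNA is translated more, so the level of Atf4 RNA is not a measure of ATF4 protein. ATF4 switches on genes for amino acid synthesis, transport and tRNA charging, together with feedback and stress genes such as Trib3, Ddit3 and Chac1. Serine is made from a glycolytic intermediate by PHGDH, PSAT1 and PSPH in turn, and it feeds glycine and the folate one-carbon units that dividing cells use for nucleotides.

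Total counts per library were 33272941 to 41352922 for NL-shGFP, 37490405 to 51669018 for FL-shGFP and 42071168 to 58590251 for FL-shAlpl. Low counts were mostly even (72.4% to 77.2% of counts up to 12), so each sequenced fragment seems to have added 2, and a low count stands for fewer molecules than its value. Mitochondrially encoded genes took 28.0% to 37.5% of NL-shGFP counts, 13.7% to 21.5% of FL-shGFP counts and 14.8% to 24.3% of FL-shAlpl counts. All 8 epithelial markers were detected in every group, and their summed level in CPM (counts scaled to 1000000 per library) was 9211 to 11340 for NL-shGFP, 11190 to 16590 for FL-shGFP and 10140 to 16100 for FL-shAlpl. Markers of other cells moved with the groups. The 9 T and NK cell markers summed to 11.8 to 47.1 CPM across NL-shGFP libraries, 59.5 to 169.5 across FL-shGFP and 9.71 to 20.7 across FL-shAlpl. The 10 myeloid markers summed to 175.9 to 424.5, 392.2 to 1134 and 147.5 to 425.8 CPM, and the 8 surface colonocyte markers to 402.3 to 1513, 2963 to 9384 and 1088 to 2667 CPM in the same order of groups. No marker of these lists was at 0 in a whole group. Alpl itself had 0 to 2 counts in an NL-shGFP library, 14 to 25 in an FL-shGFP library and 0 to 6 in an FL-shAlpl library. In bulk RNA, fewer cells of a type and less RNA per cell cannot be told apart.

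The promoters of the 10 members were searched for TGATGNAA, the composite element that C/EBP and ATF proteins bind in amino acid response genes, on both strands of windows from 250 bases before to 50 bases after the start site (RefSeq, GRCm38.p6; 12 windows covered the 10 members). It was found in Asns, Chac1 and Trib3, against 3.97% of all 32851 windows. In Asns it began 23 bases before the start site, in Chac1 193 bases before it on the opposite strand, and in Trib3 15 bases after it on the opposite strand. CCAAT, a short element searched after the values of the members had been seen, was found on either strand in the windows of every member other than Asns and Trib3, against 37.4% of all windows. The 30 bases around the element are shown for Asns and Chac1, which carry the amino acid response element before the start site, and for Phgdh and Psat1, the serine synthesis genes that passed a test, which carry CCAAT instead. Capitals mark the element, and each sequence runs 5′ to 3′ along the gene's own strand.

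Asns, chr6:7693214-7693243, minus strand: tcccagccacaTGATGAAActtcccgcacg

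Chac1, chr2:119351038-119351067, plus strand: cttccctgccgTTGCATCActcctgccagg

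Phgdh, chr3:98339976-98340005, minus strand: taagcatttctgaCCAATcaaaaggagact

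Psat1, chr19:15925079-15925108, minus strand: atagtgagcgtggCCAATagggaggggagc

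Asns and Chac1, which share the amino acid response element, differed in their spread: the coefficient of variation of CPM over the NL-shGFP libraries was 1.14% for Asns and 33.3% for Chac1. They also differed in abundance. An NL-shGFP library held 1854 to 2401 counts of Asns and 66 to 182 of Chac1, so counting noise weighs more on Chac1. A match of letters is a description and not a measured binding site.

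Levels were compared between genes by deposited FPKM, which divides by gene length. In NL-shGFP, Atf4 was the highest of the 10 at 91.96 ± 8.93 FPKM (mean ± SD, n = 5 here and below), followed by Asns at 21.1 ± 1.26 and Phgdh at 10.5 ± 1.02. Psat1 at 5.33 ± 0.372, Atf5 at 5.22 ± 0.528 and Ddit3 at 4.29 ± 0.958 followed, and they lay within their spread of each other. Sesn2 at 2.44 ± 0.235 and Chac1 at 1.84 ± 0.637 came next, with overlapping ranges, then Psph at 1.17 ± 0.184 and last Trib3 at 0.295 ± 0.129. The order was not the same in FL-shGFP. There Atf5 was the third at 8.85 ± 0.372 FPKM, and Phgdh at 3.48 ± 2.38 and Psat1 at 3.06 ± 1.37 had dropped among Ddit3 at 4.38 ± 1.68 and Sesn2 at 3.51 ± 0.509. Of the genes at the foot of the order, Trib3 rested on 11 to 89 counts per library.

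**Figure D1:**
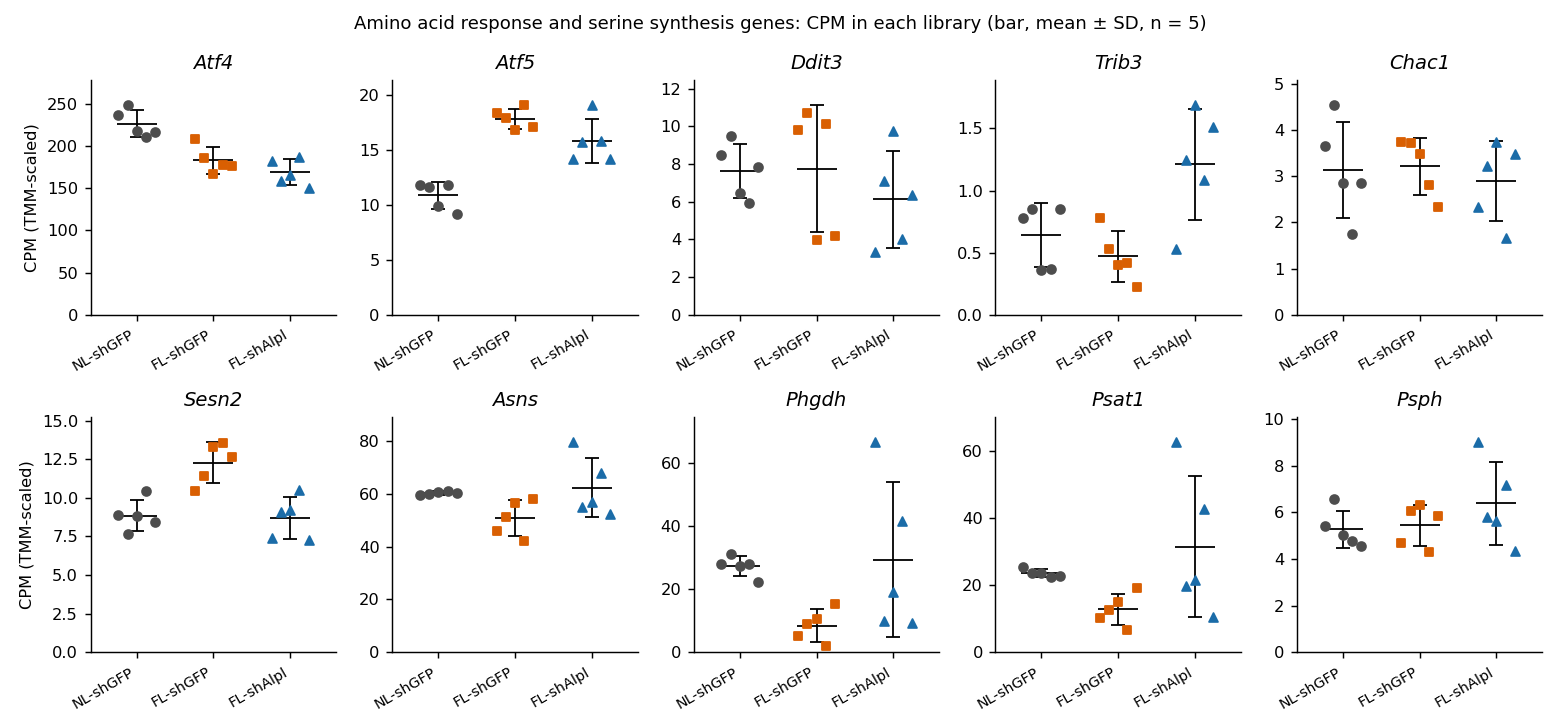
CPM, scaled by the trimmed mean of M-values (TMM), of each of the 10 genes in each of the 15 libraries (points, replicates 1 to 5 from left to right), with the mean (long bar) and SD (capped line) of each group of 5; every axis starts at 0. Atf5 in all 5 FL-shGFP libraries lies above all 5 NL-shGFP libraries, Phgdh in all 5 FL-shGFP libraries lies below them, and Phgdh and Psat1 spread most widely in FL-shAlpl.

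FL-shGFP against NL-shGFP asks what the CDAA diet with fatty liver, under the control vector, changed in the crypts. Phgdh, the first enzyme of serine synthesis, and Atf4 were lower, while Atf5, a transcription factor related to ATF4, and Sesn2, a sestrin that senses leucine upstream of mTORC1, were higher. The remaining 6 genes did not pass. In edgeR's quasi-likelihood test (each gene is given with its log2 fold change and that estimate's standard error, two-sided, with Benjamini-Hochberg adjustment at 0.05 over the 17404 genes), 2 members passed as higher and 2 as lower. Of all genes tested, 46.7% passed, 25.1% higher and 21.6% lower, so 4 of 10 was near the background. The members' median change was -0.11, beside -0.0016 over all genes tested. Of all calls, 53.8% were higher, or 65.8% when libraries were scaled by their totals alone.

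FL-shAlpl against FL-shGFP compares the Alpl hairpin with the control hairpin on the CDAA diet. Phgdh, Psat1 and Trib3, a pseudokinase that feeds back on the ATF4 response, were higher in FL-shAlpl, and Sesn2 was lower. The other 6 members did not pass, Atf4 and Atf5 among them. The 3 members called higher stood beside 18.0% of all genes called higher, and the single member called lower beside 17.9% called lower, 36.0% in all. The members' median change was 0.057, beside -0.0037 over all genes tested. This comparison and the previous one share the FL-shGFP libraries, so values that are low or high there enter both.

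FL-shAlpl against NL-shGFP sets the treated fatty liver group beside the normal group. Atf5 was higher and Atf4 lower, as 1 member each, and the other 8 did not pass. Of all genes tested, 17.4% passed, 9.31% higher and 8.12% lower. The members' median change was 0.077, beside 0.052 over all genes tested. The share of all calls that were higher was 53.4%, 42.3% with upper-quartile factors and 75.0% with library totals alone, which shifted the median of all genes by 0.14.

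**Figure D2:**
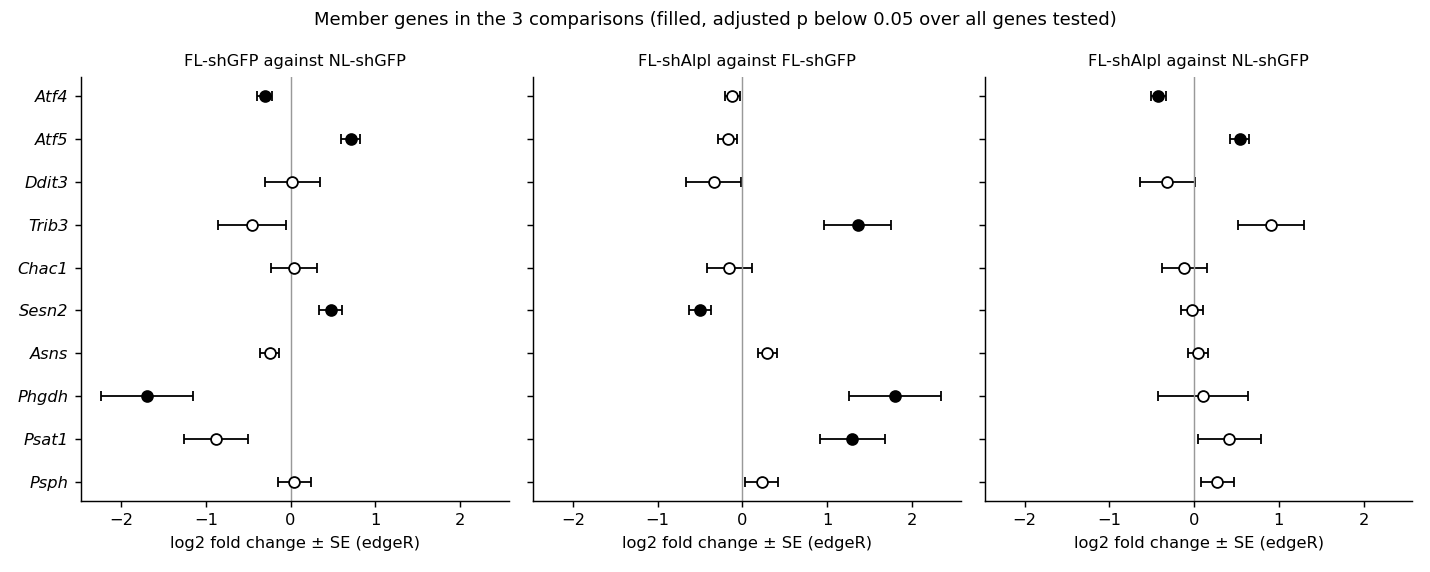
Log2 fold change (point) and standard error (line) of the 10 genes in the 3 comparisons, from edgeR; filled points have an adjusted p below 0.05 over all genes tested. Phgdh lies at -1.70 in FL-shGFP against NL-shGFP, at 1.80 in FL-shAlpl against FL-shGFP and at 0.10 in FL-shAlpl against NL-shGFP, while Atf5 is filled on the right in the first and the last comparison.

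Atf4 encodes the central transcription factor of the response. In the order of replicates 1 to 5, as for every gene below, the NL-shGFP libraries held 236.6, 248.4, 218.1, 210.5 and 215.9 CPM, the FL-shGFP libraries 208.2, 186.0, 166.4, 177.8 and 175.6, and the FL-shAlpl libraries 181.8, 158.8, 166.0, 186.7 and 150.0. In CPM every library of either CDAA group was below every NL-shGFP library, though FL-shGFP replicate 1 came close. The CDAA groups overlapped each other. In FPKM the ranges overlapped: the lowest NL-shGFP library was at 81.73, and the highest FL-shGFP and FL-shAlpl libraries at 85.09 and 85.6. Atf4 fell by 0.31 ± 0.09 in FL-shGFP (edgeR adjusted p = 0.0136) and by 0.42 ± 0.09 in FL-shAlpl (adjusted p = 0.00603) against NL-shGFP. Between the CDAA groups it differed by -0.12 ± 0.09 (adjusted p = 0.340). The fall against NL-shGFP did not pass when libraries were scaled by totals alone (adjusted p = 0.0877 for FL-shGFP and 0.0972 for FL-shAlpl) or in limma on log2(FPKM + 1) (0.0891 and 0.0996). The FL-shGFP fall was also lost with NL-shGFP replicates 1 and 2, and 3 and 4, summed (-0.30, adjusted p = 0.0516). It was lost too with the immune and stromal (-0.24, adjusted p = 0.507), colonocyte (-0.45, adjusted p = 0.30) or proliferation marker score (-0.24, adjusted p = 0.142) as covariate. The summed colonocyte, T and NK cell, and proliferation markers did not overlap between FL-shGFP and NL-shGFP. Such scores partly stand for the group itself. Here and for the genes below, a call lost with them cannot tell cell content from group. With mitochondrially encoded genes left out before scaling, the fall in FL-shGFP was -0.32 (adjusted p = 0.0141) and that in FL-shAlpl -0.43 (adjusted p = 0.00733).

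Atf5 moved opposite to Atf4. Its levels were 11.8, 11.6, 9.88, 11.8 and 9.21 CPM in NL-shGFP, 18.4, 17.9, 16.8, 19.1 and 17.0 in FL-shGFP, and 14.2, 15.7, 19.1, 15.9 and 14.2 in the FL-shAlpl libraries. All 10 CDAA libraries were above all 5 NL-shGFP libraries, and the FL-shGFP libraries were the tightest group, with a coefficient of variation of 5.30%. Atf5 rose by 0.71 ± 0.11 in FL-shGFP (edgeR adjusted p = 0.000187) and by 0.54 ± 0.11 in FL-shAlpl (adjusted p = 0.00421) against NL-shGFP. The difference between the CDAA groups was -0.17 ± 0.11 (adjusted p = 0.234). Both rises passed with each library left out in turn and in every alternative that added no covariate. As covariate, the immune and stromal marker score left the FL-shGFP value at 0.74 (adjusted p = 0.0629), and the colonocyte marker score took it to 0.29 (adjusted p = 0.582). The exons of Atf5 overlap those of Nup62 and Il4i1 on the opposite strand by 4.11% of their length in GENCODE vM21, and the strand setting of the counting is not given in the sources used here.

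Ddit3 encodes CHOP, a stress transcription factor downstream of ATF4. Its levels were 8.46, 9.47, 6.44, 5.93 and 7.82 CPM in NL-shGFP, 9.78, 10.7, 3.95, 10.1 and 4.18 in FL-shGFP, and 3.33, 7.10, 9.75, 4.04 and 6.38 in the FL-shAlpl libraries. The groups overlapped throughout. In FL-shGFP, replicates 3 and 5 stood well below the other 3, and in FL-shAlpl replicates 1 and 4 were the lowest. Ddit3 passed in no comparison (0.02 ± 0.32, adjusted p = 0.962, in FL-shGFP against NL-shGFP, and -0.34 ± 0.32, adjusted p = 0.433, in FL-shAlpl against FL-shGFP). Marker sums of several cell types were lowest in the same FL-shGFP libraries. There the 7 goblet cell markers summed to 44700, 52920, 26460, 50220 and 23470 CPM, the surface colonocyte markers to 9384, 8639, 5132, 9290 and 2963, and the T and NK cell markers to 136.3, 169.5, 70.4, 127.8 and 59.5. In FL-shAlpl the surface colonocyte sums were 1088, 2667, 2137, 1775 and 1814 CPM and the goblet sums 12860, 31580, 21200, 23240 and 31270, both lowest in replicate 1, the library lowest in Ddit3. Replicate 3, highest in Ddit3, was second in the colonocyte sum but second lowest in the goblet sum, and lowest in the T and NK sum at 9.71 CPM. The myeloid sum differed from these, being highest in FL-shGFP replicate 3 at 1134 CPM. With the colonocyte score as covariate, Ddit3 was at -1.76 in FL-shGFP against NL-shGFP (edgeR adjusted p = 0.171). In FL-shAlpl against FL-shGFP it was at 0.87 (edgeR adjusted p = 0.329). The part of these cells in Ddit3 was not tested otherwise. The exons of Ddit3 overlap those of Mars1 on the opposite strand by 3.97% of their length, and those of Gm4189 by 0.759%. Another gene entry named Ddit3 on the same strand, absent from the counts, shares 6.13%.

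Trib3 was the rarest member, and of Ddit3, Trib3, Chac1 and Sesn2 the only one called higher in FL-shAlpl against FL-shGFP. Its levels were 0.780, 0.848, 0.360, 0.371 and 0.853 CPM in NL-shGFP, 0.776, 0.527, 0.403, 0.417 and 0.226 in FL-shGFP, and 0.527, 1.25, 1.69, 1.08 and 1.51 in the FL-shAlpl libraries. FL-shAlpl replicates 2 to 5 were above every other library, while replicate 1 lay among the FL-shGFP values. Trib3 rose by 1.36 ± 0.39 in FL-shAlpl against FL-shGFP (edgeR adjusted p = 0.0150), and its value against NL-shGFP was 0.91 ± 0.39 (adjusted p = 0.119). In FL-shGFP against NL-shGFP it was -0.45 ± 0.40 (adjusted p = 0.364). The rise passed with each library left out in turn, and also with a proliferation score as covariate (1.87, adjusted p = 0.0235), a fit chosen after the data had been seen. With the immune and stromal score it was 1.29 (adjusted p = 0.412) and with the colonocyte score 2.25 (adjusted p = 0.0830). Against NL-shGFP it passed when FL-shAlpl replicate 1 was left out (1.10, adjusted p = 0.0486), with voom (1.30, adjusted p = 0.00853) and in limma on log2(FPKM + 1) (0.30 on that scale, adjusted p = 0.0407).

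Chac1 encodes an enzyme that degrades glutathione and is a sensitive ATF4 target. It measured 3.66, 4.54, 2.85, 1.75 and 2.84 CPM in NL-shGFP, 3.73, 3.71, 3.49, 2.80 and 2.34 in FL-shGFP, and 2.33, 3.22, 3.74, 1.67 and 3.49 in the FL-shAlpl libraries. The 3 groups overlapped throughout, and the differences were 0.04 ± 0.27, -0.15 ± 0.27 and -0.12 ± 0.27 in the order of comparisons above, none of which passed (adjusted p = 0.919, 0.683 and 0.816).

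Sesn2 was highest in FL-shGFP. Its levels were 8.88, 7.68, 8.80, 10.4 and 8.45 CPM in NL-shGFP, 10.5, 11.4, 13.3, 13.5 and 12.7 in FL-shGFP, and 7.41, 9.06, 9.20, 10.5 and 7.25 in the FL-shAlpl libraries. FL-shAlpl replicate 4 reached the level of the lowest FL-shGFP library and NL-shGFP replicate 4 came just below it, and the other libraries of those groups lay well below FL-shGFP. Sesn2 rose by 0.47 ± 0.13 in FL-shGFP against NL-shGFP (edgeR adjusted p = 0.00907) and fell by 0.50 ± 0.13 in FL-shAlpl against FL-shGFP (adjusted p = 0.00958). FL-shAlpl and NL-shGFP differed by -0.03 ± 0.13 (adjusted p = 0.921). The fall did not pass with library totals alone (-0.41, adjusted p = 0.0533). The immune and colonocyte marker sums were also highest in FL-shGFP. With the immune and stromal score as covariate Sesn2 kept its size, at 0.60 (adjusted p = 0.187) and -0.62 (adjusted p = 0.231), and lost its call.

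Asns, the enzyme that makes asparagine from aspartate and glutamine, was the steadiest member in NL-shGFP. It measured 59.4, 59.9, 60.6, 61.2 and 60.1 CPM there, a coefficient of variation of 1.14%. Counting noise alone would leave a wider spread at 1854 to 2401 counts, so this value says little about true steadiness. In FPKM, at 21.1 ± 1.26, Asns spread more relative to its mean. The FL-shGFP libraries held 46.0, 51.1, 56.6, 42.0 and 57.9 CPM and the FL-shAlpl libraries 79.5, 55.1, 56.7, 68.0 and 52.3. All 5 FL-shGFP libraries were below all 5 NL-shGFP libraries in CPM, while FL-shAlpl spanned both sides. In the deposited FPKM, FL-shGFP replicate 5 at 23.44 was above the highest NL-shGFP library at 23.23. Neither difference from FL-shGFP passed (-0.25 ± 0.12, adjusted p = 0.0910, against NL-shGFP, and 0.30 ± 0.12, adjusted p = 0.0569, for FL-shAlpl). The FL-shAlpl difference passed without FL-shGFP replicate 3 (0.34, adjusted p = 0.0469), FL-shGFP replicate 5 (0.35, adjusted p = 0.0318) or FL-shAlpl replicate 5 (0.36, adjusted p = 0.0287), and the FL-shGFP difference passed with only the 2 groups compared (-0.25, adjusted p = 0.0312) or with voom (-0.30, adjusted p = 0.00780).

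Of the serine synthesis genes, Phgdh had the largest change of the 10 members in both comparisons with FL-shGFP. The NL-shGFP libraries held 27.9, 31.1, 27.2, 28.1 and 22.3 CPM, the FL-shGFP libraries 5.02, 8.84, 10.7, 1.96 and 15.4, and the FL-shAlpl libraries 66.6, 10.03, 19.1, 41.7 and 9.32. All 5 FL-shGFP libraries were below all 5 NL-shGFP libraries. The FL-shAlpl libraries were split, with replicates 1 and 4 above every other library and replicates 2, 3 and 5 below NL-shGFP. The highest library exceeded the lowest by a ratio of 1.40 within NL-shGFP, 7.85 within FL-shGFP and 7.14 within FL-shAlpl. Phgdh fell by 1.70 ± 0.55 in FL-shGFP against NL-shGFP (edgeR adjusted p = 0.0196) and rose by 1.80 ± 0.55 in FL-shAlpl against FL-shGFP (adjusted p = 0.0196). FL-shAlpl and NL-shGFP differed by 0.10 ± 0.53 (adjusted p = 0.919). The rise in FL-shAlpl did not pass without FL-shAlpl replicate 1 (1.25, adjusted p = 0.0711) or without FL-shGFP replicate 1 (1.66, adjusted p = 0.0506), and neither with no low-count filter (1.81, adjusted p = 0.0597) nor with only the 2 groups compared (1.82, adjusted p = 0.0539). The fall in FL-shGFP did not pass with no low-count filter (-1.72, adjusted p = 0.0583) or with NL-shGFP replicates 1 and 2, and 3 and 4, summed (-1.66, adjusted p = 0.0606).

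Psat1, the transaminase of the second step, followed the same libraries. It measured 25.5, 23.6, 23.7, 22.6 and 22.8 CPM in NL-shGFP, 10.3, 12.7, 15.04, 6.69 and 19.2 in FL-shGFP, and 62.7, 19.8, 21.6, 42.7 and 10.6 in the FL-shAlpl libraries. Again all FL-shGFP libraries were below all NL-shGFP libraries in CPM, and FL-shAlpl replicates 1 and 4 were above all others. In FPKM, FL-shGFP replicate 5 at 5.007 lay above the lowest NL-shGFP library at 4.862. Psat1 rose by 1.30 ± 0.38 in FL-shAlpl against FL-shGFP (edgeR adjusted p = 0.0167). Its value in FL-shGFP against NL-shGFP was -0.88 ± 0.38 (adjusted p = 0.0669), and in FL-shAlpl against NL-shGFP 0.42 ± 0.37 (adjusted p = 0.490). Without FL-shAlpl replicate 1 the rise was 0.89 (adjusted p = 0.0549), and without FL-shGFP replicate 5 the FL-shGFP value was -1.08 and passed (adjusted p = 0.0380). The FL-shGFP value also passed with DESeq2 (-0.87, adjusted p = 0.0439), while with voom it passed (-1.01, adjusted p = 0.0102) and neither Psat1 (0.87, adjusted p = 0.0549) nor Phgdh (1.31, adjusted p = 0.0559) passed in FL-shAlpl against FL-shGFP.

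Psph, the phosphatase of the last step, did not pass in any comparison. It measured 5.40, 6.58, 5.04, 4.79 and 4.58 CPM in NL-shGFP, 4.70, 6.08, 6.31, 4.31 and 5.84 in FL-shGFP, and 9.01, 5.80, 5.64, 7.16 and 4.33 in the FL-shAlpl libraries. The groups overlapped, with FL-shAlpl replicates 1 and 4 again above every other library. Its differences were small beside the spread (0.05 ± 0.19, adjusted p = 0.861, in FL-shGFP against NL-shGFP, and 0.23 ± 0.19, adjusted p = 0.369, in FL-shAlpl against FL-shGFP). Its exons overlap those of Cct6a on the opposite strand by 10.4% of their length. Whether the counting told reads of the pair apart by strand is not known here.

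Phgdh, Psat1 and Asns ranked the libraries of each CDAA group in a single order. In FL-shGFP all 3 genes were highest in replicate 5, followed by replicates 3, 2, 1 and 4. In FL-shAlpl all 3 were highest in replicate 1, followed by replicates 4, 3, 2 and 5. The summed CPM of 15 proliferation genes, among them Mki67, Pcna and Mcm2 to Mcm7, ranked the libraries in the same order in both groups. That sum was 1565, 1480, 1250, 1251 and 1138 CPM in NL-shGFP, 406.9, 547.3, 898.7, 182.9 and 1038 in FL-shGFP, and 2254, 1028, 1246, 2178 and 613.7 in the FL-shAlpl libraries. In NL-shGFP, where the members and the sum varied little, the orders differed. The summed CPM of 9 mitochondrial chaperones and proteases had the same order as the proliferation sum in both CDAA groups. The order was thus not particular to the proliferation genes. The sum of the 7 crypt stem cell markers had it in FL-shAlpl but not in FL-shGFP. The 7 crypt stem cell markers summed to 189.2 to 270.8 CPM across NL-shGFP libraries, 40.2 to 76.8 across FL-shGFP and 68.1 to 157.1 across FL-shAlpl. With a proliferation score as covariate, a fit chosen after the data had been seen, Phgdh was -0.25 (adjusted p = 0.479) in FL-shGFP against NL-shGFP. In FL-shAlpl against FL-shGFP it was 0.0013 (adjusted p = 0.999). Psat1 was 0.15 (adjusted p = 0.692) and 0.05 (adjusted p = 0.922) in the same order. Small values were not particular to this score. In FL-shAlpl against FL-shGFP the immune and stromal score gave Phgdh 0.11 (edgeR adjusted p = 0.974) and Psat1 0.071 (adjusted p = 0.976). The colonocyte score gave 0.087 (adjusted p = 0.979) and 0.16 (adjusted p = 0.938).

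**Figure D3:**
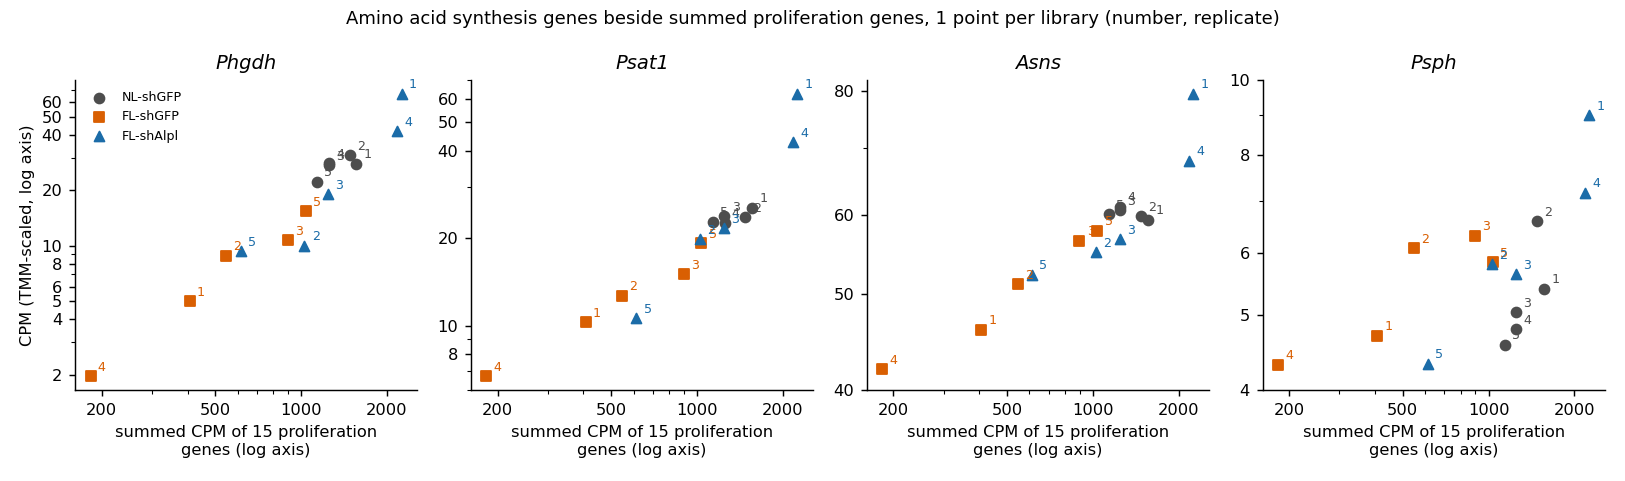
CPM of Phgdh, Psat1, Asns and Psph (vertical, log axis) against the summed CPM of 15 proliferation genes (horizontal, log axis), with 1 point per library and its replicate number beside it. In Phgdh, Psat1 and Asns the FL-shGFP and the FL-shAlpl points each climb with the proliferation sum, from 182.9 CPM in FL-shGFP replicate 4 to 2254 CPM in FL-shAlpl replicate 1.

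The stress genes did not share that order. Ddit3 was lowest of the 15 libraries in FL-shAlpl replicate 1, where Phgdh was highest, and Trib3 had its lowest FL-shAlpl value there. Sesn2 was highest in FL-shGFP replicate 4, where Phgdh was lowest. On centred log2 CPM over the 15 libraries, the root mean square distance between members was smallest for Asns and Psph (0.195), and Psat1 lay 0.574 from Asns. Atf4 was nearest to Asns (0.267) and lay 1.18 from Phgdh. Own spreads, the root mean square of a gene's centred values, were 0.208 for Atf4, 0.210 for Asns and 0.282 for Psph. They were 0.776 for Psat1 and 1.24 for Phgdh. The distance between Atf4 and Asns thus exceeded the spread of either gene, and a distance also grows with a gene's spread. Since the genes share libraries and depth, these distances are a description.

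The genes with the most similar profiles were sought among 10016 genes with a mean of at least 5 CPM, by the same distance over the 15 libraries. Nearest to Psat1 were Cip2a, an inhibitor of a phosphatase, Mcm4, a subunit of the replicative helicase, and Mms22l, a replication repair factor, at distances of 0.176, 0.220 and 0.231, beside Psat1's own spread of 0.776. Nearest to Phgdh were Polq, Rad54l and Cdc45, genes of DNA repair and replication, at 0.267, 0.280 and 0.312, beside a spread of 1.24. Nearest to Asns were Nup88, Sptssa and Metap1, at 0.0606, 0.0768 and 0.0779, beside a spread of 0.210. The other members had no such close partner relative to their spread. The nearest to Trib3 was Tinag at 0.406 of 0.759, and the nearest to Chac1 was Dpyd at 0.282 of 0.397. Atf4 was nearest to Scnm1 (0.110 of 0.208) and Atf5 to Pip5k1a (0.136 of 0.331). Ddit3 was nearest to Ppp1r3b (0.280 of 0.541), Psph to Commd2 (0.150 of 0.282) and Sesn2 to Coro7 (0.148 of 0.283).

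For the list counts from here on, the shares of all tested genes called were 25.1% higher and 21.6% lower in FL-shGFP against NL-shGFP. They were 18.0% and 17.9% in FL-shAlpl against FL-shGFP, and 9.31% and 8.12% in FL-shAlpl against NL-shGFP. Upstream of ATF4, the genes of eIF2 phosphorylation and exchange went in mixed directions. Of 14 in FL-shGFP against NL-shGFP, 3 rose, 6 fell and 5 did not pass, with a median of -0.14. Impact, an inhibitor of GCN2, rose by 0.89 ± 0.15 (edgeR adjusted p = 0.000351), and Eif2ak4, which encodes GCN2, fell by 0.44 ± 0.11 (adjusted p = 0.00400). The eIF2B subunit genes Eif2b4 and Eif2b1 fell by 0.83 ± 0.15 and 0.78 ± 0.17. In FL-shAlpl against FL-shGFP, 5 rose, 4 fell and 5 did not pass, with a median of -0.0013. Eif2b4 rose by 0.77 ± 0.15 (adjusted p = 0.00153), while Impact fell by 0.92 ± 0.15 and Eif2ak3, which encodes PERK, by 0.51 ± 0.08 (adjusted p = 0.000391). Against NL-shGFP, 2 of the 14 fell in FL-shAlpl, Eif2ak3 by 0.53 ± 0.08 and Eif2ak4 by 0.40 ± 0.11, and the other 12 did not pass.

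Among 28 other ATF4 targets, of which 26 were tested, 6 rose, 11 fell and 9 did not pass in FL-shGFP against NL-shGFP, with a median of -0.22. The ones that rose included Ddit4, an mTORC1 inhibitor (1.21 ± 0.14, adjusted p = 2.61e-05), Vldlr, a lipoprotein receptor (1.87 ± 0.22), and Gdf15, a secreted stress factor (1.72 ± 0.38). The ones that fell were led by Pycr1 of proline synthesis (-1.66 ± 0.14, adjusted p = 2.37e-06), Slc1a4, a transporter of serine and alanine (-1.27 ± 0.23), and Cth of cysteine synthesis (-0.68 ± 0.13). Nupr1, the most abundant target that did not pass, was at -0.31 ± 0.31. In FL-shAlpl against FL-shGFP, 5 rose (19.2%), 6 fell (23.1%) and 15 did not pass, with a median of -0.05. These were near the shares of all genes. Cth (0.88 ± 0.13), Pycr1 (0.61 ± 0.14) and Xpot, which exports tRNA (0.69 ± 0.17), rose, and Ddit4 (-1.12 ± 0.14), Vldlr (-1.59 ± 0.22) and Jdp2 (-2.36 ± 0.42) fell. These 11 calls became 7 without FL-shGFP replicate 2, FL-shGFP replicate 4 or FL-shAlpl replicate 4. In FL-shAlpl against NL-shGFP, 1 rose, Gdf15 by 1.83 ± 0.38, and 5 fell, among them Pycr1 by 1.05 ± 0.14 and Stc2 by 0.94 ± 0.16.

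Enzymes that charge tRNAs or use serine were called lower more often than higher in FL-shGFP, and higher more often than lower in FL-shAlpl against FL-shGFP. Of 20 cytosolic aminoacyl-tRNA synthetases, 10 fell and 10 did not pass in FL-shGFP against NL-shGFP (median -0.43), and 13 rose and 7 did not pass in FL-shAlpl against FL-shGFP (median 0.51). Yars1, the gene of tyrosyl-tRNA synthetase, changed by -0.56 ± 0.09 (adjusted p = 0.000185) in the first comparison and by 0.65 ± 0.09 in the second. Wars1, an interferon-inducible member, was at -0.46 ± 0.19 and -0.50 ± 0.19, did not pass in either, and fell by 0.96 ± 0.19 in FL-shAlpl against NL-shGFP (adjusted p = 0.00352), where Sars1 alone of the list rose (0.29 ± 0.09) and 18 did not pass. No gene of the list was called higher there without any 1 of NL-shGFP replicates 1 to 4 or FL-shAlpl replicates 2, 3 and 5. Of 14 tested enzymes of serine, glycine and folate one-carbon metabolism, 3 rose, 7 fell and 4 did not pass in FL-shGFP (median -0.65), and 9 rose, 1 fell and 4 did not pass in FL-shAlpl against FL-shGFP (median 0.72). The latter became 5 higher and 1 lower without FL-shAlpl replicate 1 or 4, and with only the 2 groups compared. Mthfd2, the mitochondrial folate enzyme, changed by -1.02 ± 0.19 (adjusted p = 0.000791) and 0.78 ± 0.19 (adjusted p = 0.00695). Aldh1l1, a cytosolic folate dehydrogenase, rose by 1.22 ± 0.18 in FL-shGFP and by 1.19 ± 0.18 in FL-shAlpl against NL-shGFP (adjusted p = 0.000143 and 0.000625) and was at -0.03 ± 0.18 between them. The 9 mitochondrial chaperones and proteases gave 1 higher, 7 lower and 1 that did not pass in FL-shGFP (median -0.61), and 7 higher and 2 that did not pass in FL-shAlpl against FL-shGFP (median 0.80), with Hspe1 at -1.64 ± 0.27 and 1.31 ± 0.27. Without FL-shGFP replicate 1, the first of these was 1 higher and 4 lower. Of the 15 proliferation genes, 9 fell and 6 did not pass in FL-shGFP (median -1.14), and 9 rose and 6 did not pass in FL-shAlpl against FL-shGFP (median 1.34), with Mcm4 at -1.08 ± 0.30 and 1.34 ± 0.31. The 9 that fell were 3 without FL-shGFP replicate 1, and the 9 that rose were 5 without FL-shAlpl replicate 4 and 15 without FL-shGFP replicate 5 or FL-shAlpl replicate 5. With the immune and stromal score or the colonocyte score as covariate, none of these 4 lists kept a call in these comparisons. There edgeR called 134 to 477 of all genes. With the proliferation score, a fit chosen after the data had been seen, the synthetases gave 1 higher and 4 lower in FL-shGFP against NL-shGFP. They gave 3 higher in FL-shAlpl against FL-shGFP. In the same comparisons the serine list gave 4 higher and 1 lower, then 1 higher and 1 lower. The chaperones gave 1 higher and 3 lower, then 2 higher.

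**Figure D4:**
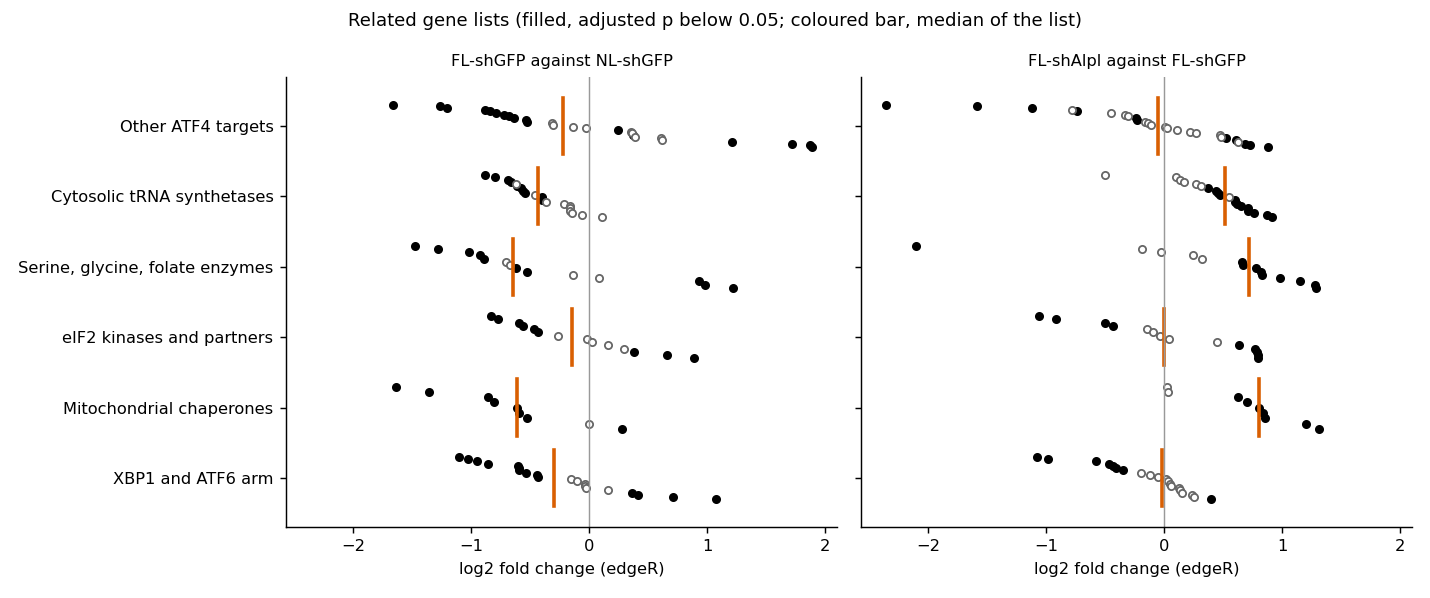
Log2 fold change of every tested gene in 6 related lists (points, spread vertically by rank; filled where the edgeR adjusted p is below 0.05) in FL-shGFP against NL-shGFP (left) and in FL-shAlpl against FL-shGFP (right), with the median of each list as a coloured bar. The medians of the tRNA synthetases, the serine, glycine and folate enzymes and the mitochondrial chaperones lie at -0.43, -0.65 and -0.61 on the left and at 0.51, 0.72 and 0.80 on the right; the comparisons share the FL-shGFP libraries.

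The other stress programs measured beside the members did not all move in a single direction. Of 20 genes of the XBP1 and ATF6 arm of the endoplasmic reticulum stress response, 4 rose and 10 fell in FL-shGFP against NL-shGFP (median -0.30), 1 rose and 7 fell in FL-shAlpl against FL-shGFP (median -0.02), and 11 fell in FL-shAlpl against NL-shGFP (median -0.46). The 8 calls of the second became 5 without FL-shGFP replicate 1, 2 or 4 or FL-shAlpl replicate 1 or 4, and the 11 of the last became 7 without NL-shGFP replicate 3 or 5 or FL-shAlpl replicate 5. Herpud1, of protein degradation, rose by 1.08 ± 0.13 and fell by 1.08 ± 0.13 in the first and second of these, while the disulfide isomerase gene Pdia6 fell by 0.96 ± 0.11 in FL-shGFP and by 0.71 ± 0.11 in FL-shAlpl against NL-shGFP. Of 7 NRF2 targets, 4 rose in FL-shGFP (median 0.44) and 4 in FL-shAlpl (median 0.43) against NL-shGFP, with Srxn1 at 1.32 ± 0.17 and 0.73 ± 0.17 and Gclc at 0.81 ± 0.13 and 0.64 ± 0.13. Of 10 p53 targets (p53 also drives sestrin genes), 3 rose and 3 fell in FL-shGFP against NL-shGFP (median -0.13), with Cdkn1a at 1.22 ± 0.33. Of 16 genes of amino acid sensing upstream of mTORC1, where SESN2 acts, 3 rose, 2 fell and 11 did not pass in the same comparison (median 0.02), with the arginine sensor relative Castor2 at 1.72 ± 0.29 and Nprl2 at -0.71 ± 0.15. Of 5 family relatives of the members, Sesn1 rose (0.86 ± 0.26, adjusted p = 0.0144), Chac2 fell (-0.45 ± 0.16, adjusted p = 0.0309) and 3 did not pass. None of the 5 was called lower without any 1 of NL-shGFP replicates 2 to 4 or FL-shGFP replicates 3 to 5. Sesn1 then fell by 1.36 ± 0.26 in FL-shAlpl against FL-shGFP (adjusted p = 0.00173), in the direction of Sesn2.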

How the data were processed

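The authors deposited whole-number read counts per gene and FPKM for the same 15 libraries, per the file headers, and the FPKM values carry the counts scaled by gene length and library total. The libraries were made from column-purified, mRNA-enriched RNA, per the labels' protocols. The submitters' processing notes name HISAT2, whose version, like the build, annotation, counter and strand setting, is not given in the sources used here. Gene IDs were matched to symbols (32241 of 32939). The members, lists and motifs were chosen with earlier results of these data known.

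Counts of the 17404 genes that passed filterByExpr were fitted in a single edgeR 4.0.16 model (robust quasi-likelihood, TMM factors, a mean per group, 12 residual degrees of freedom, R 4.3.3), and the code was tested on simulated counts. All 3 comparisons used two-sided tests, and p was adjusted by the Benjamini-Hochberg method with a threshold of 0.05. The common biological coefficient of variation was 30.2%, so spread between samples and not depth limits most genes. CPM is TMM-scaled and ± beside it is the SD. NL-shGFP replicates 3 and 4 were the closest pair (median chi-square 0.824 per gene, beside 0.455 for repeats of a single library), so all 15 libraries were kept separate. Alternatives were totals alone, upper-quartile or RLE factors, no low-count filter or 1 CPM in 5 samples, voom (quality weights), DESeq2 1.42.0 and limma-trend on log2(FPKM + 1) or log2(FPKM + 0.1) (limma 3.58.1). Further ones were only the 2 groups compared, a replicate block, close NL-shGFP libraries summed, no mitochondrially encoded genes, 3 marker scores as covariates, and each library left out. Named list genes are up to 3 passing genes per direction by p, with at most 2 of the abundant genes that missed the threshold. Not every gene that meets this rule is reported here. Promoters are RefSeq windows of GRCm38.p6, and exon overlaps are from GENCODE vM21. Figures used matplotlib 3.10.9 with Python 3.11.15.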

Additional observations from a re-analysis of the deposited data

How the results depend on the processing

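The members called by edgeR numbered 4, 4 and 2 in FL-shGFP against NL-shGFP, FL-shAlpl against FL-shGFP and FL-shAlpl against NL-shGFP. Of 81 recomputed counts, 69 stayed within 1.5 times of these. The first count was 2 with NL-shGFP replicates 1 and 2, and 3 and 4, summed. The second was 2 with voom, and the third was 1 with library totals alone and with log2(FPKM + 0.1). With the immune and stromal score or the colonocyte score as covariate the first and second counts were 0, where all genes called fell from 8128 to 477 and 240 and from 6261 to 134 and 445. With the proliferation score, a fit chosen after the data had been seen, both were 2, beside 3626 and 1895 of all genes. All genes called in FL-shAlpl against NL-shGFP were 3035, and 5259 with voom, 1340 with the NL-shGFP pairs summed and 1979 without FL-shAlpl replicate 2. Leaving out each library in turn gave 4 to 5, 2 to 5 and 2 to 3 members, and the 2 came without FL-shAlpl replicate 1. The colonocyte sums and the T and NK cell sums of FL-shGFP overlapped those of neither other group. Fits with the colonocyte or immune score can thus hardly separate cell content from group. The cause of the changes in these counts was not tested. Keeping all 15 libraries separate is the reported fit itself, and Trib3 has no value under 1 CPM in 5 samples, a filter it did not pass.

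Same-numbered libraries did not deviate together: 15 correlations of their deviations ran from -0.353 to 0.326, and 3 were over 0.1. With the replicate block 2 members passed in FL-shAlpl against FL-shGFP, Phgdh at 1.64 (adjusted p = 0.0868) and Psat1 at 1.17 (adjusted p = 0.0626) being lost. With the block, Phgdh in FL-shAlpl against NL-shGFP was -0.040.

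Of the members' 807 recomputed fold changes, 63 changed sign, 12 gained and 37 lost a call. Of those that passed in the reported fit, Phgdh in FL-shGFP against NL-shGFP was the only one to change sign, to 0.033 with the immune and stromal score and 0.43 with the colonocyte score. In FL-shGFP against NL-shGFP the other sign changes were as follows. Ddit3 was -0.0040 with no low-count filter, -0.021 with log2(FPKM + 1), -0.039 with log2(FPKM + 0.1), -0.046 with NL-shGFP replicates 3 and 4 summed (chosen after the data had been seen), -0.15 with the immune score, -1.76 with the colonocyte score and -0.78 with the proliferation score, and -0.13 to 0.19 with libraries left out. Trib3 was 0.039 with voom. Chac1 was -0.049 with replicates 3 and 4 summed, -0.85 with the colonocyte and -0.18 with the proliferation score, and -0.12 to 0.21 with libraries left out. Asns was 0.067, 0.28 and 0.048 and Psat1 0.38, 0.59 and 0.15 with the immune, colonocyte and proliferation scores. Psph was -0.013 to 0.14 with libraries left out.

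In FL-shAlpl against FL-shGFP, Psph was -0.25, -0.0065 and -0.24 with the immune, colonocyte and proliferation scores, Asns -0.080 and -0.012, Chac1 0.47 and 0.044 and Ddit3 0.87 and 0.41 with the colonocyte and proliferation scores, and Atf5 0.12 with the colonocyte score. In FL-shAlpl against NL-shGFP, Asns was -0.06 with voom, -0.0081 with upper-quartile factors and -0.054 to 0.11 with libraries left out. Chac1 was 0.17 with voom, 0.013 and 0.026 with log2(FPKM + 1) and log2(FPKM + 0.1), 0.0088 with totals alone and -0.27 to 0.060 with libraries left out. Psat1 was -0.13 with voom. Phgdh was -0.75 with voom, -0.12 and -0.17 on log2 FPKM, -0.25 with the proliferation score and -0.45 to 0.33 with libraries left out. Sesn2 was 0.076 and 0.098 on log2 FPKM, 0.0017 with replicates 3 and 4 summed, 0.12 with totals alone and -0.10 to 0.040 with libraries left out.

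Of the counts for other lists, 702 stayed within 1.5 times and 189 did not, 79 of them with a score as covariate and 45 with a library left out. The proliferation list had 9 genes called in each of the first comparisons. It gave 15 with voom in FL-shGFP against NL-shGFP and 14 with DESeq2 in FL-shAlpl against FL-shGFP. In the former it gave 3 with totals alone or no low-count filter and 2 with the NL-shGFP pairs summed. The replicate block gave 5 in both. In the latter, no low-count filter and only the 2 groups compared also gave 5. The tRNA synthetases gave 6 in place of 10 with totals alone in FL-shGFP against NL-shGFP.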
